A study of Mus musculus with 6 samples.

Results

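Transcripts of 36 genes of melanin synthesis and of melanosome formation and transport were examined in bulk RNA sequencing of mouse inner ear. The genes were taken from the deposited table by their symbol, and all 36 were found among its 55401 genes. The table holds 3 wild-type libraries (WT) and 3 libraries of mutant mice, whose genotype is labelled Pou3f4y/- (abbreviated KO). Both groups are described as inner ear with all of its cells, although another label of the same samples names interstitial cells, and neither age, strain, dissection nor the nature of the mutant allele is given. The stated aim of the study was to find how the inner ear of these mutants becomes pigmented.

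Melanin is made by pigment cells inside the melanosome, an organelle related to the lysosome. Tyrosinase (Tyr) starts the synthesis from tyrosine, and the related enzymes Tyrp1 and Dct act on later intermediates. Pmel forms the fibrils on which melanin is laid down, and transporters of ions and protons set the conditions in the organelle. Cargo reaches the melanosome through sorting complexes that all cells use, the BLOC complexes and the adaptor AP-3, and mutations in several of their subunits cause Hermansky-Pudlak syndrome, in which pigment is lost and other lysosome-related organelles are defective. In the cochlea, pigment cells form the intermediate cells of the stria vascularis, which are needed for the endocochlear potential.

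The genes were read in 3 classes. The pigment-specific class held 10 genes (Tyr, Tyrp1, Dct, Pmel, Mlana, Oca2, Slc45a2, Slc24a5, Gpr143 and Trpm1). The shared effector class held 7 genes that act on melanosomes and also in other cells (Gpnmb, Rab38, Rab32, Rab27a, Mlph, Myo5a and Mreg). The ubiquitous machinery class held 19 genes, namely the subunits of BLOC-1, BLOC-2 and BLOC-3, 4 subunits of AP-3, Vps33a and Lyst.

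The promoters of the 3 melanin enzymes are shown because each holds a sequence found in most of the pigment-specific promoters. The letters TCATGTG, the core of the M-box that the melanocyte regulator MITF is known to bind, are in capitals, on either strand. The 250 bases before each RefSeq start are given 5′ to 3′ on the strand of the gene (GRCm38.p6). For Tyr this is chr7:87493513-87493762 (minus strand), for Tyrp1 chr4:80833963-80834212 (plus strand) and for Dct chr14:118052247-118052496 (minus strand).
Tyr: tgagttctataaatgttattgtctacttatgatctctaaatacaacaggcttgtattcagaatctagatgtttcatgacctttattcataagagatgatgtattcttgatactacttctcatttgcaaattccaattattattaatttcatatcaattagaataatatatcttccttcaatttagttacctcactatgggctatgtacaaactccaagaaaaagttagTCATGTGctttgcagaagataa
Tyrp1: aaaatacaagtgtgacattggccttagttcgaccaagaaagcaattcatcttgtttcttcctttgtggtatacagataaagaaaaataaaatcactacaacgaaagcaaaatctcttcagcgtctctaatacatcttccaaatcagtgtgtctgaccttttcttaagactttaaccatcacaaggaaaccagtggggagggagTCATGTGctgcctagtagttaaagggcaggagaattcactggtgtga
Dct: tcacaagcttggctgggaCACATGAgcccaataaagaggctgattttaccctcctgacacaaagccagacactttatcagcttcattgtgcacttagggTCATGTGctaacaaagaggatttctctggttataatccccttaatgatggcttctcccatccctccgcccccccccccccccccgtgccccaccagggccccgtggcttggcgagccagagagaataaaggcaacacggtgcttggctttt
Forward copies began 22 bases before the start of Tyr, 47 before that of Tyrp1 and 151 before that of Dct, and Dct held a further copy on the reverse strand. Promoters were found in RefSeq for 28 of the 36 members. In the pigment-specific class those of Pmel, Mlana, Slc45a2 and Gpr143 were not found. TCATGTG on either strand was in 5 of the 6 pigment-specific promoters found (Dct, Slc24a5, Trpm1, Tyr and Tyrp1), in 0 of 6 of the shared effectors and in 1 of 16 of the machinery (Hps1). Of 27025 genes with a promoter, 3.72% held it. The shorter CATGTG, which is contained in it, was in all 6 pigment-specific promoters, adding Oca2, and in 13.8% of all genes. The longer TCATGTGCT, chosen after the 3 enzyme promoters were seen, was in those of Dct, Tyr and Tyrp1 and in 0.359% of all genes. CACGTG, the palindromic E-box core, was in 1 of 6 pigment-specific promoters (Trpm1), 2 of 6 shared effectors (Mlph and Rab27a) and 5 of 16 machinery promoters, against 6.86% of all genes. Both strands were searched, and the matches describe the letters in the window, not binding. As TCATGTG was chosen for its known binding by a melanocyte regulator, its counts are a description and not a test.

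Library totals ranged from 18409409 to 23323953 counts. The Pou3f4 transcript was at 1044 to 2233 counts in WT and 28 to 45 in KO, far lower in each library labelled KO than in each WT library. All 10 markers of the inner ear were detected in each of the 6 libraries. The cochlear matrix gene Coch stood at 203, 854 and 781 CPM (counts per 1000000 of the library total after TMM scaling) in WT replicates 1 to 3 and at 246 to 263 CPM in KO. Of the 10 markers 7 had fitted changes below 0 and 3 above, and edgeR called 1, Otor, lower in KO (log2 fold change −1.42, edgeR adjusted p = 0.0387). WT replicate 1 stood apart: 6 genes of skin epithelium (Krt5, Krt14, Krt1, Krt10, Lor and Flg) summed to 802 CPM there and to 4.58 to 9.81 CPM in the other 5 libraries, of which Flg was at 0 in all. Skeletal muscle genes (6) made up 0.426%, 0.0101% and 0.783% of the counts in WT replicates 1 to 3 and up to 0.0575% in KO. Xist was present in WT replicates 1 and 2 and KO replicates 2 and 3, and absent (at most 6 counts) from WT replicate 3 and KO replicate 1. The notation y/- is that of a hemizygous male, yet Xist, which females transcribe from the inactive X, held 15783 and 15119 counts in KO replicates 2 and 3. Values without WT replicate 1 are given beside the fitted changes of members that it moved by over 1.5 times. The labels do not say whether replicates came from separate animals, so p-values measure only the spread between these libraries.

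No member passed the threshold between genotypes (edgeR quasi-likelihood test, Benjamini-Hochberg adjusted p under 0.05 over 19687 genes, of which 0.396% passed, 0.213% higher and 0.183% lower in KO). Of the 36 members 35 were tested, Oca2 being too low. An unadjusted p under 0.05 was found for 9 (25.7%, beside 19.6% of all genes tested), 7 with higher and 2 with lower values in KO, beside 8.71% and 10.9% of all genes. DESeq2 called 1 member, Rab38, beside 7.84% of all genes, and limma-voom called 0. Libraries of the 2 genotypes did not overlap for 17 members (beside 27.7% of all genes tested), 14 higher and 3 lower in KO, which is 40% and 8.57% of the 35, beside 15% and 12.7% of all genes tested. Without WT replicate 1 these counts were 15 and 4, beside 24.1% and 22.9% of all genes. Without WT replicate 1, 9 members (25.7%) had an unadjusted p under 0.05, below the 29.3% of all genes in that setting. Without KO replicate 1, 2 or 3 the count was 1, 6 and 2 (2.86%, 17.1% and 5.71%), beside 10.9%, 13.1% and 10.3% of all genes.

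**Figure D1:**
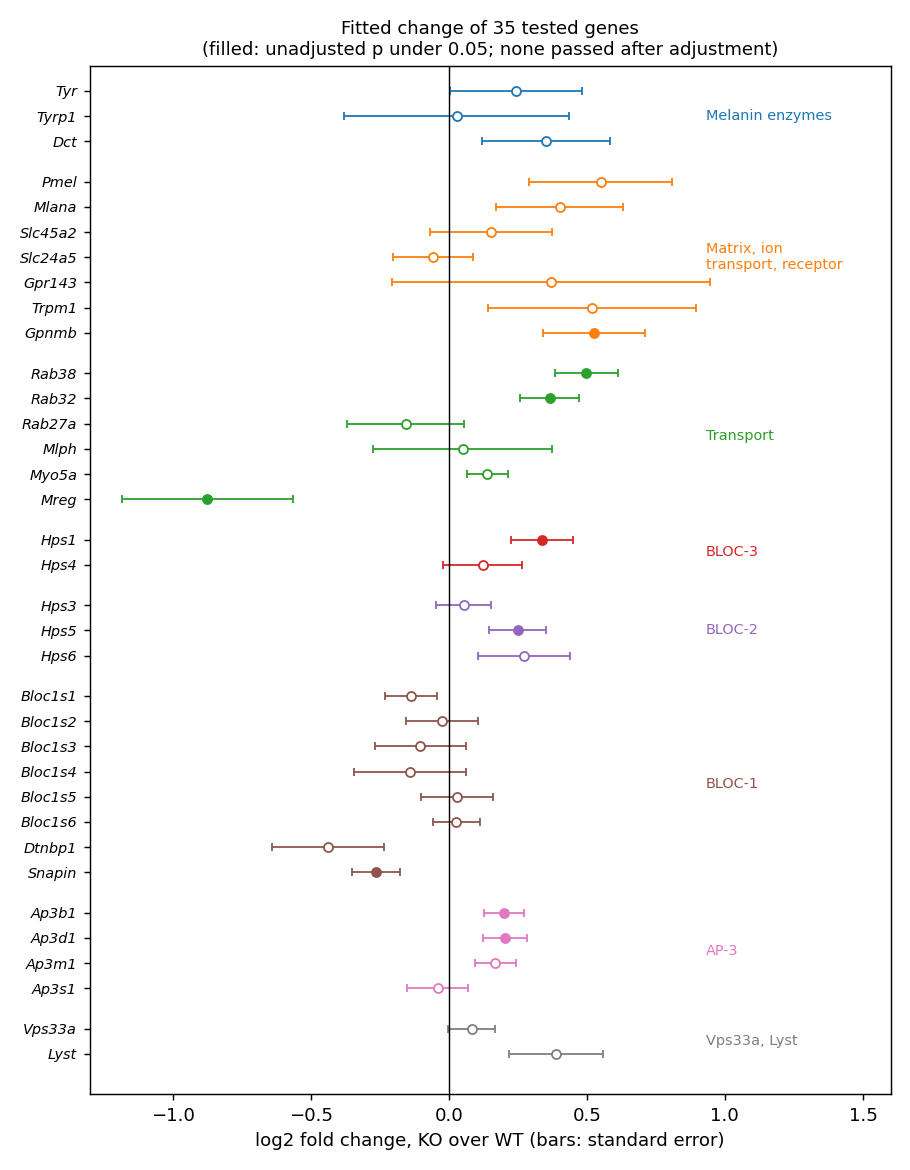
Fitted log2 fold changes (KO over WT, horizontal axis) of the 35 tested genes grouped by role, with standard errors as bars; filled points have an unadjusted p under 0.05. With all 6 libraries the largest positive value is that of Pmel (0.55) and the most negative that of Mreg (−0.87).

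The melanin enzymes differed by less than the spread between the WT libraries. Dct (ENSMUSG00000022129, chromosome 14, 118012790 to 118052244, mm10), which converts dopachrome, stood at 36.5, 65.6 and 66.5 CPM in WT replicates 1 to 3 and at 67.4, 66.8 and 81.1 CPM in KO replicates 1 to 3. WT replicate 1 was far below the rest, and the other WT values lay just under the lowest KO value. The fitted log2 fold change was 0.35 (SE 0.23, edgeR adjusted p = 0.437), and 0.11 without WT replicate 1. Tyr (ENSMUSG00000004651, chromosome 7, 87424771 to 87493512) stood at 5.70, 10.01 and 9.25 CPM in WT and at 9.49, 8.76 and 11.4 CPM in KO. The groups overlapped, WT replicate 1 again being lowest (log2 fold change 0.24, SE 0.24, edgeR adjusted p = 0.603, and 0.02 without WT replicate 1). Tyrp1 (ENSMUSG00000005994, chromosome 4, 80834123 to 80851719) stood at 3.30, 6.67 and 2.08 CPM in WT and at 3.74, 4.44 and 4.11 CPM in KO. Altered in the brown mouse, Tyrp1 had WT libraries that spread on both sides of KO (log2 fold change 0.03, SE 0.41, edgeR adjusted p = 0.978), and the sign turned without WT replicate 1 (−0.10).

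Within a library, Dct and Tyr kept a similar proportion while Tyrp1 did not. The CPM of Dct over that of Tyr was 6.40, 6.56 and 7.19 in WT and 7.10, 7.63 and 7.14 in KO, although Dct itself ranged from 36.5 to 81.1 CPM. Tyrp1 over Tyr was 0.578, 0.667 and 0.225 in WT and 0.394, 0.507 and 0.362 in KO, from 41 to 128 Tyrp1 counts in a library. These ratios compare libraries for 1 pair of genes and say nothing of the level of 1 gene against another.

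Pmel, the fibril protein (ENSMUSG00000025359, chromosome 10, 128704195 to 128720238), is altered in the silver mouse. It stood at 7.43, 12.4 and 12.4 CPM in WT and at 13.8, 13.2 and 20.2 CPM in KO. The groups did not overlap, but KO replicate 3 was high and WT replicate 1 low (log2 fold change 0.55, SE 0.26, edgeR adjusted p = 0.298, and 0.33 without WT replicate 1). Of its exon length 6.06% is shared with Dgka and Cdk2, on the other strand. Relative to Mitf, the regulator of melanocyte identity, Pmel was at a ratio of 0.514, 0.620 and 0.561 in WT and 0.686, 0.707 and 0.937 in KO. Relative to Tyr it was at 1.30, 1.24 and 1.34 in WT and 1.45, 1.51 and 1.78 in KO. Both ratios lay higher in all 3 KO libraries, a description of 2 ratios picked after the values were seen. Mlana, a melanosome membrane protein that takes part in the maturation of Pmel, stood at 1.28, 1.51 and 1.68 CPM in WT and at 1.70, 1.92 and 2.33 CPM in KO. These groups were separated only narrowly (log2 fold change 0.40, SE 0.23, edgeR adjusted p = 0.379).

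Of the transporters and receptors of the melanosome, none separated the genotypes. Slc45a2, a transporter that affects melanosomal pH and is altered in the underwhite mouse, stood at 3.52, 4.69 and 3.10 CPM in WT and 4.22, 3.66 and 4.71 CPM in KO (log2 fold change 0.15, SE 0.22, and 0.09 without WT replicate 1). Trpm1, a cation channel of melanocytes and retina, stood at 2.79, 8.08 and 5.34 CPM in WT and 6.75, 6.93 and 9.63 CPM in KO (0.52, SE 0.38). WT replicate 1 was lowest for Trpm1, and without it the value was 0.20. Oca2, a melanosomal anion channel altered in the pink-eyed dilution mouse, held 3, 9 and 8 counts in WT and 8, 12 and 7 in KO. Gpr143, the ocular albinism receptor, held 2, 7 and 13 counts in WT and 8, 14 and 10 in KO. Counts this low cannot show a difference, and the fitted change of Gpr143 (0.37, SE 0.58) turned sign without WT replicate 1 (−0.06).

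Slc24a5, a potassium-dependent sodium-calcium exchanger of the melanosome, was lowest in a KO library and not in WT replicate 1. It stood at 23.97, 30.1 and 24.3 CPM in WT and 25.9, 27.8 and 21.5 CPM in KO (log2 fold change −0.06, SE 0.15, edgeR adjusted p = 0.858, and −0.13 without WT replicate 1). Of the exon length of Slc24a5 39.5% is shared with Myef2 on the other strand, and Myef2 held 6469 counts against 3117 for Slc24a5. The strand setting of the counting is unknown, as is how reads on exons of both genes were assigned. The overlap may therefore have added to the Slc24a5 counts or taken from them.

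**Figure D2:**
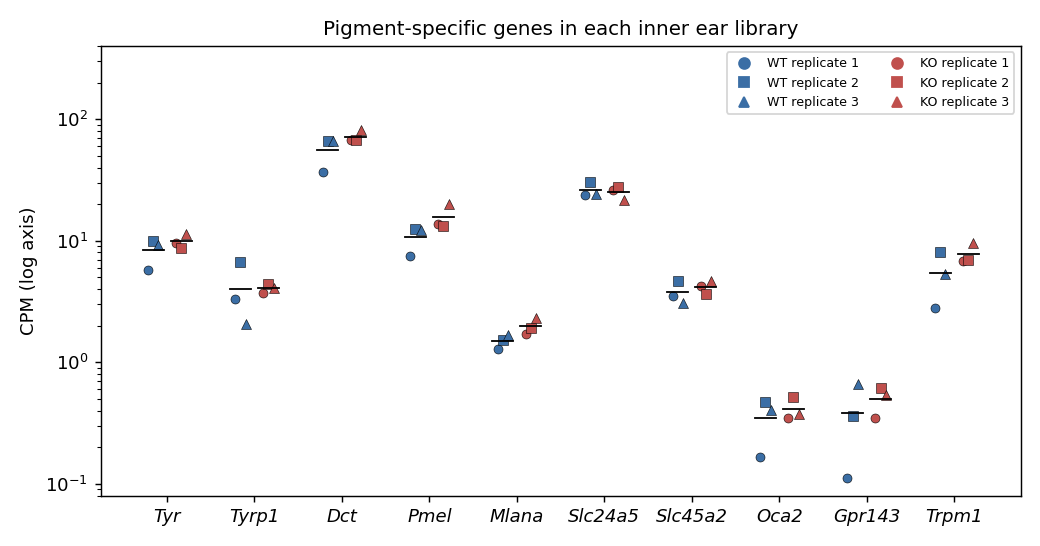
CPM (log axis) of the 10 pigment-specific genes in each of the 6 libraries, with WT in blue, KO in red, a symbol for each replicate number and a bar at the mean of each group. WT replicate 1 (blue circle) is the lowest point for 6 of the 9 tested genes and for Oca2.

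WT replicate 1 was the lowest of the 6 libraries for 6 of the 9 tested pigment-specific genes (Tyr, Dct, Pmel, Mlana, Gpr143 and Trpm1), beside 29.6% of all genes tested. The class as a whole had fitted changes above 0 for 8 of 9 tested genes, with a median of 0.35, against a median of −0.01 over all genes tested and 49% above 0. Without WT replicate 1 the count was 6 of 9 and the median 0.09. In the libraries with Xist (2 WT against 2 KO), the difference in mean log2 CPM was 0.40 for Tyr, 0.59 for Dct, 0.76 for Pmel and 0.57 for Mlana. In the single pair without Xist the same differences were 0.04, 0.02, 0.16 and 0.02. WT replicate 1, low for these 4 genes, is in the set with Xist and not in the pair. The presence of Xist and the part of that library therefore cannot be told apart here. The interaction of genotype with the presence of Xist had an adjusted p of 1 for every member tested (edgeR). An unadjusted p under 0.05 was found for 0 members and for 0.513% of all genes, in a design with 1 library without Xist in each genotype, so this count says nothing about the members. In bulk tissue, fewer pigment cells and less transcript in each cell cannot be told apart. Genes of the melanocyte lineage (Mitf, Sox10, Kit, Ednrb, Pax3, Met and Mc1r) summed to 195, 241 and 248 CPM in WT and 187 to 200 CPM in KO. None of them was at a count of 0, but Mc1r stood at only 0.0559 to 0.261 CPM. Schwann cells also express Sox10. The sum of 6 Schwann cell markers, none at a count of 0, was 4262, 7781 and 6915 CPM in WT and 2960 to 3386 CPM in KO. Of these 6, edgeR called 3 lower, beside 0.183% of all genes. Genes of strial intermediate cells (Kcnj10, Kcnj13, Cd44, Nrp2, Met, Kcnj16 and Gsta4, none at a count of 0) summed to 659, 724 and 743 CPM in WT and 892 to 1011 CPM in KO, most of it Nrp2, which other cells also make. Fitted changes lay above 0 for 4 of the 7 intermediate cell genes (median 0.10) and below 0 for 3. Of the 6 lineage genes tested, 3 lay above 0 and 3 below (median −0.04). None of the lineage or intermediate cell genes passed the threshold with edgeR. Ednrb (lower in KO), Nrp2 and Cd44 (both higher) and Gsta4 (lower) had an unadjusted edgeR p under 0.05. That is 1 of 6 lineage and 3 of 7 intermediate cell genes, beside 19.6% of all genes. DESeq2 called 0 and 2 of them, beside 7.84% of all genes. Without WT replicate 1 edgeR called 1 (lower) and 4 (2 higher and 2 lower) of them, beside 9.06% of all genes. The part of these genes in the class values was not tested.

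Among the shared effectors, 4 of 7 were higher and 1 lower in KO without overlap of the libraries, beside 15% and 12.7% of all genes. None passed the threshold with edgeR, and 4 had an unadjusted p under 0.05, beside 19.6% of all genes. Rab38 (ENSMUSG00000030559, chromosome 7, 88430273 to 88491572), a small GTPase that delivers Tyr and Tyrp1 to melanosomes and is altered in the chocolate mouse, stood at 13.0, 13.4 and 11.5 CPM in WT and 18.2, 17.4 and 18.01 CPM in KO. All 3 KO libraries lay above all 3 WT libraries, and WT replicate 1 was not the lowest. The level was 1.41-fold higher in KO, 12.6 ± 1.02 against 17.9 ± 0.407 CPM (SD, n = 3 each, log2 fold change 0.50, SE 0.11, unadjusted p = 0.0037, edgeR adjusted p = 0.115). It missed the threshold in edgeR and was called by DESeq2 (adjusted p = 0.0162) and by edgeR without WT replicate 1 (adjusted p = 0.0438), a setting in which 9.06% of all genes passed. Over all alternatives its adjusted p ranged from 0.0162 to 0.445. The fitted change stayed between 0.44 and 0.55 in all 15 alternatives. Within the libraries with Xist the difference was 0.42 and in the pair without it 0.65.

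Rab32 (ENSMUSG00000019832, chromosome 10, 10545002 to 10558265), the close relative of Rab38 with an overlapping role in trafficking to melanosomes, showed a similar arrangement. It stood at 16.1, 18.04 and 18.8 CPM in WT and 23.6, 22.2 and 22.4 CPM in KO, again without overlap (log2 fold change 0.36, SE 0.11, edgeR adjusted p = 0.159). The difference was 0.39 in the libraries with Xist and 0.33 in the pair without. Rab38 over Rab32 was 0.803, 0.746 and 0.611 in WT and 0.769, 0.782 and 0.802 in KO, so their proportion did not separate the groups.

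Gpnmb (ENSMUSG00000029816, chromosome 6, 49036546 to 49070929), a glycoprotein related to Pmel that melanocytes, macrophages and osteoclasts make, stood at 21.7, 31.8 and 35.6 CPM in WT and 43.7, 39.2 and 45.6 CPM in KO. The groups did not overlap, with WT replicate 1 lowest (log2 fold change 0.53, SE 0.18, edgeR adjusted p = 0.194, and 0.33 without WT replicate 1). Macrophage markers (10 genes, none at a count of 0) summed to 515, 619 and 593 CPM in WT and 809 to 884 CPM in KO, with 7 of 10 above 0 in fold change. Osteoclast markers (8 genes, none at a count of 0) summed to 4397, 6950 and 6079 CPM in WT and 9953 to 10602 CPM in KO, with 8 of 8 above 0. None of these marker genes passed the threshold with edgeR. The unadjusted edgeR p was under 0.05 for 6 macrophage and 7 osteoclast markers, beside 19.6% of all genes. DESeq2 called 3 macrophage and 6 osteoclast markers, beside 7.84% of all genes. Without WT replicate 1 edgeR called 4 and 7 of these markers, beside 9.06% of all genes. Their part in the values of Gpnmb, Rab38 and Rab32 was not tested.

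Mreg (ENSMUSG00000039395, chromosome 1, 72159442 to 72212307), melanoregulin, which acts in the transfer and transport of melanosomes, lay in the other direction. It stood at 12.1, 5.11 and 8.03 CPM in WT and 4.44, 4.49 and 4.81 CPM in KO. The groups did not overlap, but WT replicate 2 was near KO and WT replicate 1 was highest (log2 fold change −0.87, SE 0.31, edgeR adjusted p = 0.196, and −0.54 without WT replicate 1). Skin markers were likewise highest in WT replicate 1 (802 CPM in sum) and muscle markers were high in WT replicates 1 and 3, and their part in the Mreg values was not tested.

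The remaining effectors tether melanosomes to actin. Myo5a, the myosin motor altered in the dilute mouse, stood at 123 to 131 CPM in WT and 138 to 148 CPM in KO, without overlap (log2 fold change 0.14, SE 0.07, edgeR adjusted p = 0.346). Its adaptor Mlph, altered in the leaden mouse, stood at 2.63, 1.20 and 1.53 CPM in WT and 1.70, 1.79 and 2.06 CPM in KO. Rab27a, which recruits Mlph and is altered in the ashen mouse, stood at 8.66, 12.7 and 15.1 CPM in WT and 10.5 to 11.1 CPM in KO. Neither Mlph (0.05, SE 0.32) nor Rab27a (−0.16, SE 0.21) separated the groups, and both signs turned when a single library was left out (Mlph −0.16 without WT replicate 2, Rab27a 0.03 without WT replicate 3). Their values were 0.42 and −0.36 without WT replicate 1.

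**Figure D3:**
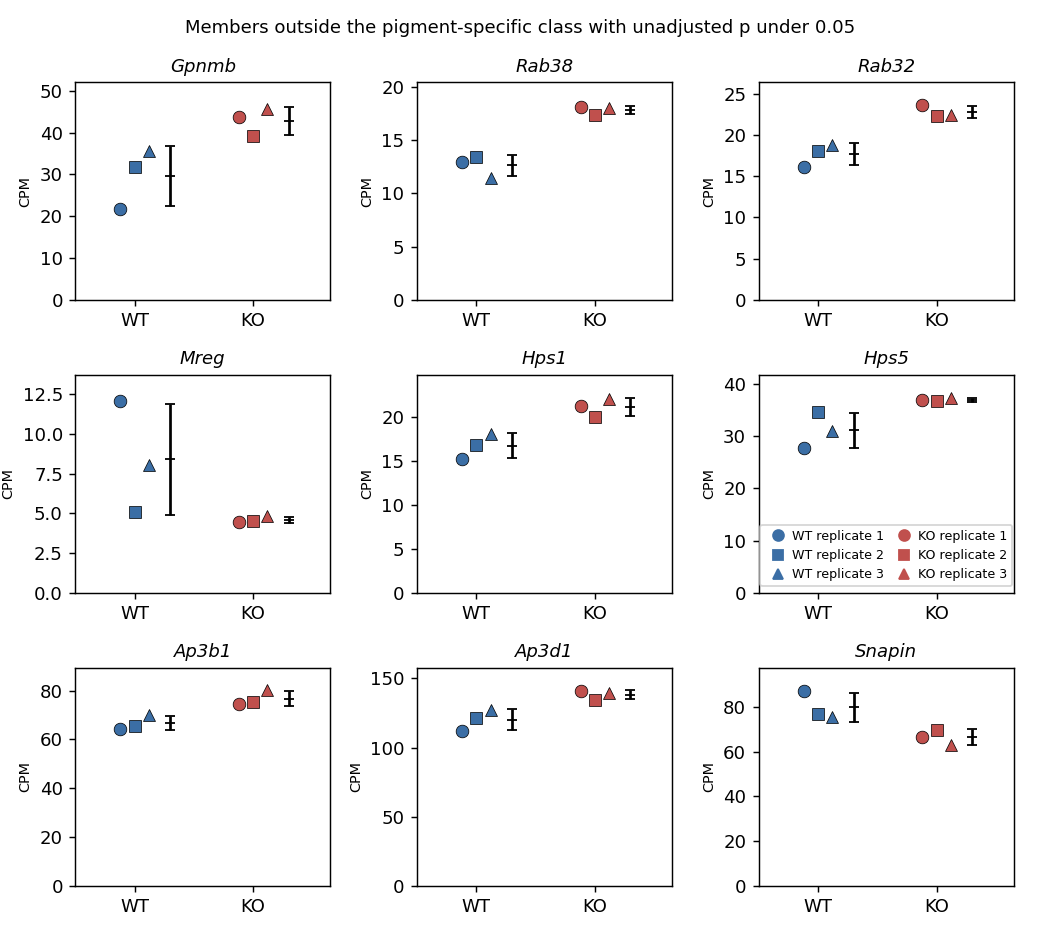
CPM of the 9 members outside the pigment-specific class with an unadjusted p under 0.05, in each library, with bars for the mean ± SD (n = 3 per group). The KO libraries lie above the WT libraries for 7 genes and below them for Mreg and Snapin.

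In the ubiquitous machinery, the signs of the fitted changes were not the same in all complexes, and the difference between complexes was not tested. All 5 subunits of BLOC-2 and BLOC-3 had fitted changes above 0, as had 3 of the 4 AP-3 members, beside 49% of all genes tested. The AP-3 values here are of these 4 members. Other AP-3 subunits, read with the further sorting genes below, were at −0.58 (Ap3b2), 0.17 (Ap3m2) and −0.0044 (Ap3s2). In BLOC-1, 6 of the 8 subunits lay below 0. These 6 include Bloc1s1 (−0.14), which shares 55.9% of its exon length with Rdh5 and was kept in the BLOC-1 and machinery values. None passed the threshold with edgeR (unadjusted p under 0.05 for 5 of 19, or 26.3%, beside 19.6% of all genes), and DESeq2 called 0, beside 7.84% of all genes. The median log2 fold change was 0.25 over BLOC-2, 0.23 over BLOC-3, 0.19 over AP-3 and −0.12 over BLOC-1. Without WT replicate 1 they were 0.14, 0.13, 0.15 and −0.09, with 4 of 5, 4 of 4 and 1 of 8 above 0 for BLOC-2 with BLOC-3, AP-3 and BLOC-1.

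In BLOC-3, the exchange factor for Rab32 and Rab38, Hps1 stood at 15.3, 16.8 and 18.1 CPM in WT and 21.3, 20.05 and 22.1 CPM in KO. The groups did not overlap (log2 fold change 0.34, SE 0.11, edgeR adjusted p = 0.184). Its partner Hps4 overlapped between groups, at 13.1, 18.3 and 16.1 CPM in WT and 17.1 to 17.4 CPM in KO (0.12, SE 0.14). In BLOC-2, which directs tubular carriers to melanosomes, Hps5 stood at 27.8, 34.6 and 31.0 CPM in WT and at 37.0, 36.7 and 37.4 CPM in KO (0.25, SE 0.10, edgeR adjusted p = 0.247). Hps6 stood at 5.08 to 6.81 CPM in WT and 6.98 to 7.66 CPM in KO (0.27, SE 0.17), and Hps3 at 34.4 to 40.8 and 36.04 to 39.5 CPM (0.05, SE 0.10). Of the 3, only Hps3 overlapped between groups. The fitted changes without WT replicate 1 were −0.0081 for Hps4, 0.16 for Hps5, 0.14 for Hps6 and 0.0093 for Hps3.

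AP-3 sorts Tyr and other cargo from endosomes. Ap3b1, altered in the pearl mouse, stood at 64.4, 65.7 and 70.2 CPM in WT and 74.6, 75.4 and 80.3 CPM in KO (log2 fold change 0.20, SE 0.07, edgeR adjusted p = 0.204). Ap3d1, altered in the mocha mouse, stood at 112, 121 and 127 CPM in WT and 141, 134 and 140 CPM in KO (0.20, SE 0.08, edgeR adjusted p = 0.229). Both were 1.15-fold higher in KO without overlap of the groups. Ap3m1 stood at 214 to 229 CPM in WT and 243 to 252 CPM in KO (0.17, SE 0.08), but 29.8% of its exon length overlaps Vcl on the opposite strand. Ap3s1 stood at 67.5 to 89.5 and 75.3 to 79.1 CPM (−0.04, SE 0.11, and 0.04 without WT replicate 1).

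BLOC-1 forms the carriers that leave the endosome. Snapin (ENSMUSG00000001018, chromosome 3, 90488026 to 90491033) stood at 87.4, 77.1 and 75.6 CPM in WT and 66.7, 70.0 and 63.1 CPM in KO. All KO libraries lay below all WT libraries (log2 fold change −0.26, SE 0.09, edgeR adjusted p = 0.178), and exons of Ilf2 on the opposite strand overlap 15.5% of its length. Markers of neurons (6 genes, none at a count of 0) summed to 898, 2004 and 1353 CPM in WT and 727 to 1011 CPM in KO, with fitted changes below 0 for 6 of 6 (median −0.71). Of these 0 were called by edgeR, and 3 had an unadjusted edgeR p under 0.05, beside 19.6% of all genes. Without WT replicate 1 edgeR called 2, beside 9.06% of all genes. DESeq2 called 3, beside 7.84% of all genes. The part of these neuron markers in the Snapin and Dtnbp1 values was not tested. Dtnbp1, dysbindin, the gene altered in the sandy mouse, stood at 43.9, 26.6 and 27.4 CPM in WT and 23.7 to 24.6 CPM in KO (−0.44, SE 0.20, edgeR adjusted p = 0.289). That value rested on WT replicate 1, without which it was −0.18. The fitted changes of Bloc1s2, Bloc1s3, Bloc1s4, Bloc1s5 and Bloc1s6 lay between −0.14 and 0.03, including the genes altered in the cappuccino, muted and pallid mice, with overlapping groups and mean levels in WT of 18.1, 11.5, 10.1, 20.8 and 30.9 CPM. These changes lay, without WT replicate 1, between −0.11 (Bloc1s3) and 0.04 (Bloc1s2), Bloc1s4 moving from −0.14 to −0.04, and Bloc1s5 and Bloc1s6 from 0.03 each to −0.08 and −0.0042.

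Bloc1s1 could not be read on its own. It shares 55.9% of its exon length with Rdh5, a retinol dehydrogenase, on the same strand. Bloc1s1 stood at 38.9, 38.3, 33.2, 33.7, 32.6 and 34.1 CPM in WT replicates 1 to 3 and KO replicates 1 to 3, and Rdh5 at 40.8, 39.9, 34.8, 34.7, 35.04 and 35.1 CPM in the same libraries. The 2 genes had nearly the same value in each library. How reads on exons of both were assigned is not given, and the counts do not show which gene they came from.

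Vps33a, a subunit of the tethering complex that fuses endosomal membranes and the gene altered in the buff mouse, stood at 43.7 to 47.8 CPM in WT and 44.4 to 51.2 CPM in KO (0.08, SE 0.09, and 0.04 without WT replicate 1). Lyst, which sets the size of lysosomes and melanosomes and is altered in the beige mouse, stood at 23.9, 31.8 and 33.8 CPM in WT and 37.4, 34.1 and 45.6 CPM in KO. Its groups were narrowly apart (0.39, SE 0.17, edgeR adjusted p = 0.266, and 0.24 without WT replicate 1).

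Levels per exon length set most pigment-specific genes below the machinery. On the scale of CPM per kilobase of exon, the WT mean of the machinery ranged from 1.71 (Lyst) to 34.96 (Snapin). Dct, at 9.53 ± 2.90 in WT and 12.2 ± 1.37 in KO (SD, n = 3 each), lay among the machinery genes, as did Pmel at 4.68 ± 1.25 and 6.87 ± 1.68. Tyrp1 (1.42), Mlana (1.41), Slc45a2 (1.26) and Tyr (1.17) followed below Lyst in WT, and their neighbours in this order did not differ beyond their SD of 0.187 to 0.841. Trpm1 (0.366), Gpr143 (0.190) and Oca2 (0.0878) were lower still. Slc24a5, at 11.2 ± 1.49, stood above the other pigment-specific genes in WT, with the overlap with Myef2 given above. Rab38 (8.01), Rab32 (7.55) and Myo5a (8.67) were at the level of the machinery and Mlph (0.333) near Trpm1.

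**Figure D4:**
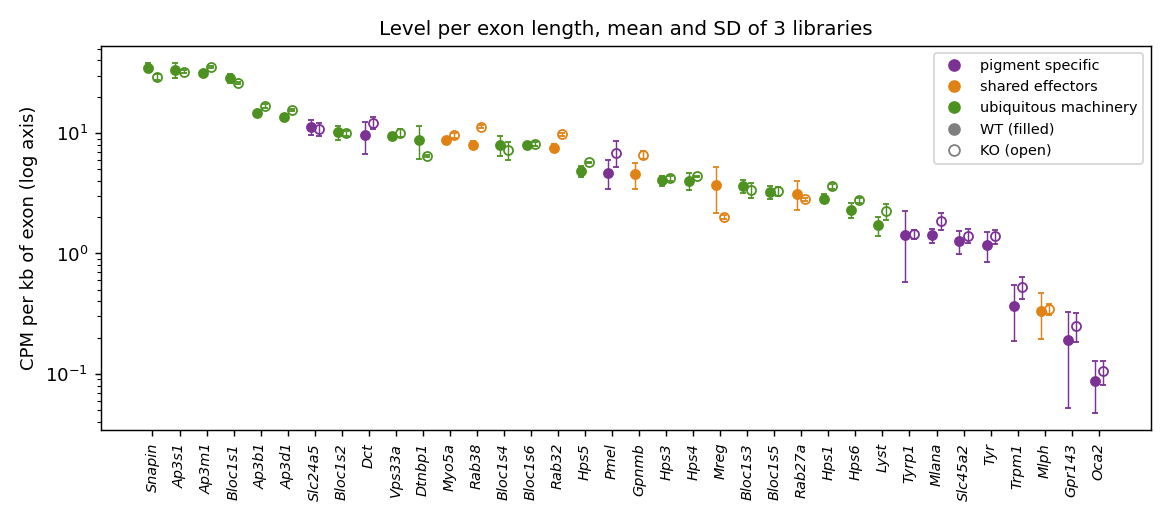
CPM per kilobase of exon (log axis) of all 36 genes, ordered by the WT mean, with WT as filled and KO as open points and the SD of 3 libraries as bars. Snapin is highest at 34.96 and Oca2 lowest at 0.0878 in WT.

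The spread between libraries, described here with no test, was wider in the median for the lower-level pigment-specific genes than for the machinery. The median coefficient of variation was 27.7% in WT and 13.6% in KO over the 9 tested pigment-specific genes, against 10.9% and 4.40% over the 19 machinery genes and 17.3% and 7.69% over all genes tested. Counting alone gives medians of 8.65% and 3.80% in the 2 classes. The WT spread exceeded the KO spread for 8 of 9, 6 of 7 and 16 of 19 genes of the pigment-specific, shared effector and machinery classes, near the 80.8% of all genes tested for which it did.

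Set against each other within a library, the classes differed between genotypes by less than the WT spread. The mean log2 CPM of the 10 pigment-specific genes was 1.67, 2.48 and 2.22 in WT and 2.32, 2.45 and 2.58 in KO. That of the 19 machinery genes was 4.99, 5.06 and 4.98 in WT and 5.07, 5.07 and 5.06 in KO. The pigment-specific mean minus the machinery mean was −3.32, −2.58 and −2.76 in WT and −2.75, −2.62 and −2.48 in KO, a mean of −2.89 ± 0.388 against −2.62 ± 0.135 (SD, n = 3 each). The groups overlapped, and the shift of 0.27 on the log2 scale was 0.05 without WT replicate 1 and 0.42 without WT replicate 2. Median fitted changes were 0.35 in the pigment-specific class, 0.14 in the shared effectors and 0.05 in the machinery. The machinery median was 0.09 without WT replicate 3.

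**Figure D5:**
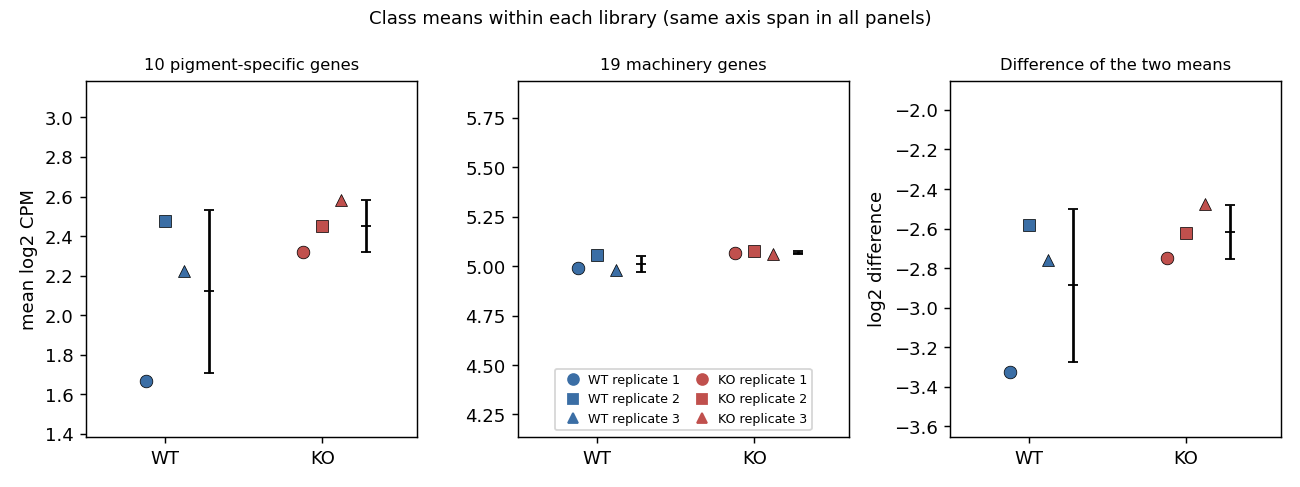
Mean log2 CPM of the 10 pigment-specific genes, of the 19 machinery genes, and the difference of these means, in each library (symbols by replicate), with the mean ± SD of each group. The machinery means lie between 4.98 and 5.07, and the pigment-specific mean of WT replicate 1 (1.67) lies below the other 5 (2.22 to 2.58).

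Other genes of these pathways were read from lists made for this comparison, and none of them passed the threshold with edgeR. The list of further endosomal sorting genes included subunits of AP-1, HOPS and BORC, other AP-3 subunits, and SNARE, Rab and phosphoinositide genes. Of its 34 genes, 18 had changes above 0 and 16 below, with a median of 0.03. An unadjusted p under 0.05 was found for 5 (14.7%, beside 19.6% of all genes), all higher in KO. DESeq2 called 1, beside 7.84% of all genes. The smallest p was that of Pikfyve, the lipid kinase of endosome maturation, at 39.9, 37.5 and 32.3 CPM in WT and 47.5, 47.1 and 50.7 CPM in KO (0.41, SE 0.10, edgeR adjusted p = 0.131). The next was that of Vps39, a HOPS subunit, at 52.0, 55.9 and 58.0 CPM in WT and 64.4, 62.5 and 69.3 CPM in KO (0.24, SE 0.08, edgeR adjusted p = 0.180). Both were without overlap of the groups. In the list, 17.6% were higher and 5.88% lower without overlap, beside 15% and 12.7% of all genes.

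Of 15 further genes tied to pigment cells or melanosome contents, 14 were tested, with 9 above 0, 5 below and a median of 0.16. An unadjusted p under 0.05 was found for 5 of these (35.7%, beside 19.6% of all genes), all higher in KO. DESeq2 called 2, beside 7.84% of all genes. Without WT replicate 1 edgeR called 3 of the 14 and 2 of the 34 sorting genes, beside 9.06% of all genes. The smallest p was that of Clcn7, a chloride-proton exchanger of lysosomes and of the osteoclast border, at 45.9, 64.1 and 63.7 CPM in WT and 87.2, 85.4 and 94.4 CPM in KO (0.62, SE 0.14, edgeR adjusted p = 0.110). The next was that of Cd63, a tetraspanin that takes part in Pmel sorting and is common in lysosomes, at 426, 450 and 344 CPM in WT and 566, 580 and 555 CPM in KO (0.48, SE 0.12, edgeR adjusted p = 0.127). The groups did not overlap for either gene. The osteoclast gene Ctsk stood at 1681, 2785 and 2028 CPM in WT and 3941, 4197 and 4277 CPM in KO, and its part in the values of Clcn7 and Cd63 was not tested.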

How the data were processed

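RNA of mouse inner ear was sequenced in 3 WT and 3 Pou3f4 KO libraries, extracted with TRIzol and prepared with a stranded TruSeq mRNA kit per the labels' protocols. The deposited values are whole-number read counts per gene that the authors made, with Trimmomatic, HISAT2, HTSeq and Cufflinks and the mm10 build named in the submitters' processing notes. Tool versions and the strand setting: not given in the sources used here. Totals of 18409409 to 23323953 counts put a floor of 3 counts at 0.131 to 0.168 CPM; such floors cover counting error only.

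Genotypes were compared over all genes with edgeR 4.0.16 (R 4.3.3; TMM scaling, filterByExpr with a minimum count of 10, quasi-likelihood test, Benjamini-Hochberg adjustment, threshold 0.05), tested beforehand on simulated data. CPM is relative to the TMM-scaled total, and log2 CPM used a prior count of 2. Standard errors were taken from the fold change and the F statistic. DESeq2 1.42.0, limma-voom (limma 3.58.1), other scalings and filters, the replicate block, an Xist term and leaving out each library were alternatives. The Xist splits and the interaction were added after the data were seen. Exon lengths and overlaps came from GENCODE M21, in which all 36 genes had the coordinates of the deposited table. Promoters came from RefSeq (GRCm38.p6, 28 of the 36 members matched).

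The members and lists were chosen with earlier results of these data known. Every member is named, and values in each library are given for the pigment-specific genes and for members with an unadjusted edgeR p under 0.05. Of other pathway genes, the 2 with the smallest p in each list are given. One listed sorting gene, Vamp7, was not matched by name.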

Additional observations from a re-analysis of the deposited data

How the results depend on the processing

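Of 523 values of a tested member under an alternative, 501 kept their direction and their side of the threshold, and 25 of the 35 members had no reversal. With 0 members called in the main fit, no member could change side in an alternative where no gene passed. There the count reflects direction only. Gpr143 had no adjusted p in DESeq2 and was counted as keeping its side. The count of genes past the threshold over the whole table (78 with edgeR) was 1509 with DESeq2, 0 with the Xist term (3185 at an unadjusted p under 0.05) and 0 to 1814 when 1 library was left out. It was 0 without WT replicate 3 or any 1 of the KO replicates, 760 without WT replicate 2 and 1814 without WT replicate 1. Among the members the count of 0 was 1 with DESeq2, 0 to 1 with 1 library left out, and the called gene was Rab38. With 1 library left out, the pigment-specific median ranged from 0.09 to 0.49, the machinery median from 0.038 to 0.090, and the pigment-specific mean minus the machinery mean shifted by 0.05 to 0.42. With 1 library left out, fitted changes ranged across 0 for Tyrp1 (−0.28 to 0.61), Slc24a5 (−0.13 to 0.061), Gpr143 (−0.059 to 1.03), Rab27a (−0.36 to 0.032), Mlph (−0.16 to 0.42), Hps4 (−0.0081 to 0.24), Bloc1s2 (−0.13 to 0.038), Bloc1s5 (−0.079 to 0.090), Bloc1s6 (−0.0043 to 0.062) and Ap3s1 (−0.14 to 0.041). Bloc1s2 also turned with no filter on low counts (0.00034). The cause was not tested. No pairing of same-numbered libraries was seen. Their deviations from the group means had correlations across genes of −0.131, −0.295 and −0.191, and no KO library was closest to its own number. Deviations within a group of 3 depend on each other, so whether libraries were paired cannot be decided from these values. With the replicate number as a block, 1 gene passed, 0 members passed and the medians of the 2 classes were 0.40 and 0.06. Depth limits Oca2 and Gpr143, at 2 to 14 counts in a library.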
